A study of Rattus norvegicus with 2 samples.

Results

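H2Aub peaks were described here in the 4 stretches of the rat genome where the Hox clusters were looked for. A peak is an interval in which the immunoprecipitated library held more fragments than its local background. Peaks were chosen by position on the peak list of ischemic myocardium: a peak was a member when it lay wholly inside 1 of 4 windows, on chromosomes 7 (HoxC), 3 (HoxD), 10 (HoxB) and 4 (HoxA). The windows were proposed with the list known, and each listed peak had already passed a q threshold, so the number of peaks and their strength are given as a description, with no test. In all, 319 of 17207 peaks were members (1.85%), with 97 peaks in the HoxC window, 65 peaks in the HoxD window, 78 peaks in the HoxB window and 79 peaks in the HoxA window. The member peaks covered 249.7 kb of the 8.50 Mb covered by the whole list (2.94%). Myocardial tissue came from male rats with a ligated left anterior descending coronary artery, after 30 min of ischemia. The data comprised 1 library immunoprecipitated with an antibody against H2Aub (n = 1) and 1 input library of the same treatment (n = 1), which is chromatin sequenced without immunoprecipitation. No strain, age or number of animals was given in the sources used here, the tissue holds several cell types, and no sham tissue was analysed here.

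Polycomb repressive complex 1 (PRC1) attaches ubiquitin to histone H2A, mainly through its catalytic subunits RING1A and RING1B, and this mark is linked to gene silencing. Hox genes encode homeodomain transcription factors that set position along the body axis, and in mammals they lie in clusters named HoxA, HoxB, HoxC and HoxD. The clusters are classical targets of polycomb silencing, in which PRC1 and its partner complex PRC2, the methyltransferase of H3K27, are found at CpG-rich DNA and spread over whole stretches of chromatin.

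The 4 windows had been proposed as likely places of the clusters, so their chromosomes were part of that choice. Identity could be compared only by chromosome, and a match does not establish it. In the RefSeq gene table of the GRCr8 assembly, the 11 HoxA genes lay on chromosome 4, the 10 HoxB genes on chromosome 10, the 9 HoxC genes on chromosome 7 and the 9 HoxD genes on chromosome 3, the same chromosomes as in 4 of 4 windows. Positions were not compared, because the build of the peak list was not settled: the processing notes of the submitters name hg38, a human build, while the list holds chromosomes 1 to 20 and X besides 35 scaffolds. For this reason the windows carry the names of the clusters as labels, and no peak was placed at a gene. Position within a window is given as the distance in kb from the start of the window.

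To show what sequence Hox start sites carry, promoters were taken from the RefSeq promoter table of GRCr8, each running from 250 bases before to 50 bases after the start of transcription. The table held 21 promoters of 20 of the 39 Hox genes: 10 promoters of HoxA, 9 promoters of HoxD, 1 promoter of HoxB and 1 promoter of HoxC. The dinucleotide CG, which reads the same on both strands, occurred a median of 22 times (range 6 to 49) in the 300 bases of the Hox promoters and 7 times over all 33469 promoters of the table. At least 10 CG were present in 18 of the 21 Hox promoters (85.7%) and in 41.5% of all promoters, while at least 1 CG was present in 100% and 94.5%. The Hox promoters with fewer than 10 CG were those of Hoxa2 (9 CG), Hoxb1 (9 CG) and Hoxc4 (6 CG). Hoxb1 and Hoxc4 were the HoxB and HoxC promoters matched, so the median rests on HoxA and HoxD promoters. The median GC content was 62.3% in Hox promoters and 51.7% over all. Of paralogue group 9, which also holds Hoxb9 and Hoxc9, the promoters of Hoxa9 and Hoxd9 are printed here on the sense strand with each CG in capitals, to show the CG of a HoxA and a HoxD promoter. The sequences are those of the reference and not of this library, and no peak of the list was matched to them.
Hoxa9: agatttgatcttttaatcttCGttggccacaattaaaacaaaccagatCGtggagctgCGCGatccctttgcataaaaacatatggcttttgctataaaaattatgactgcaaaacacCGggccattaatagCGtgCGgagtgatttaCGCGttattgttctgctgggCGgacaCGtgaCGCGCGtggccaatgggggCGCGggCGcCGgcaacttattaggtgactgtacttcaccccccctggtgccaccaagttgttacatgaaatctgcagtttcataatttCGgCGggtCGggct
Hoxd9: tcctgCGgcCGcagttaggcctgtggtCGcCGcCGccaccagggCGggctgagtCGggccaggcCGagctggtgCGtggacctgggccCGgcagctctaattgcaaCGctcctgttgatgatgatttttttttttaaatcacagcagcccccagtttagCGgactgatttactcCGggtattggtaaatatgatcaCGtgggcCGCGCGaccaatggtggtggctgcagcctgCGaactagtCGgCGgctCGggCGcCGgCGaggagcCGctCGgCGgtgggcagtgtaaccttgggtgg
The Hoxa9 promoter held 21 CG at a GC content of 49.0%, and the Hoxd9 promoter held 27 CG at 62.7%.

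The strength of a peak was read at its summit, the base where it is highest. The fold enrichment is the ratio of fragments in the ChIP library to the local background, after 1 is added to each. The pileup is the number of ChIP fragments overlapping the summit, and the local background is the number that the input and the genome-wide mean led the peak caller to expect there. Both were solved from the deposited fold enrichment and p-value of each peak. Pileups of members ran from 7 to 32 fragments, and the lowest background in the list, taken as its genome-wide floor, was 1.42 fragments. At these depths a pileup of 11 fragments, the median of the list, had an exact 95% Poisson interval of 5.49 to 19.7, and a pileup of 16 fragments had 9.15 to 26.0. These pileup intervals cover counting error only, and reads copied by PCR that carry no molecular identifier cannot be counted as separate molecules. Intervals of medians and shares, given below, take the peaks of a window as independent draws, although neighbouring peaks are not independent. Neither kind holds the spread between libraries. The interval of a single fold enrichment takes the pileup interval over a fixed background, so counting error of the input is left out.

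The HoxC window, which starts at base 144450001 of chromosome 7 and is 270 kb long, held the most peaks. Its 97 peaks gave 3.59 peaks per 10 kb and covered 70.6 kb, or 26.1% of the window. The peaks had a median width of 406 bp (95% interval of the median 365 to 540) and quartiles of 302 and 842 bp. The median fold enrichment was 5.23 (interval 4.77 to 5.48, range 3.06 to 12.0), and the median pileup was 13 fragments (quartiles 11 and 16). These values belonged mostly to a single dense run. A run was defined as at least 5 peaks with no gap over 10 kb, and the longest run of the HoxC window reached from 70.0 to 204.9 kb with 90 of the 97 peaks and 49.97% of its length covered. No peak lay in the first 70.0 kb of the window. Beyond the run, 5 peaks lay between 226.1 and 236.0 kb and 2 peaks between 257.9 and 261.5 kb.

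The strongest peak of the HoxC window lay inside this run at chr7:144577005-144578519 (1515 bp). Its fold enrichment was 12.0 (95% interval 8.10 to 17.1), from a pileup of 28 fragments (18.6 to 40.5) over a background at the floor. It ranked 23rd in the list by fold enrichment and also had the highest −log10 p of the window, 27.1. The next were a peak of 965 bp at 97.9 kb with a fold enrichment of 9.92 (6.44 to 14.7) and a peak of 935 bp at 190.7 kb with 9.35 (6.12 to 13.7). These intervals overlap, so the order of the 3 peaks was not resolved at this depth. The widest peak, 3335 bp at chr7:144609028-144612362, had a fold enrichment of 6.55 (4.02 to 10.2). The first member, 358 bp wide, had a fold enrichment of 5.37 and the last member, 216 bp wide, had 4.13.

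The HoxD window, which starts at base 61500001 of chromosome 3 and is 250 kb long, had fewer but wider peaks. Its 65 peaks gave 2.60 peaks per 10 kb and covered 72.5 kb (29.0% of the window). The median width was 923 bp (555 to 1211) with quartiles of 381 and 1624 bp, and the median fold enrichment was 5.87 (5.37 to 6.90, range 3.14 to 12.1). The median pileup was 16 fragments (quartiles 12 and 20). The members formed a block of 8 peaks at 56.6 to 65.2 kb, 53.0% covered, and a run of 57 peaks at 78.3 to 186.8 kb, 62.7% covered, with a gap of 13.1 kb between them. No peak lay beyond 186.8 kb.

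Within the HoxD run, strength and coverage were unevenly placed. From 80 to 140 kb, the 10 kb bins were 59.0% to 82.0% covered and their median fold enrichment was 5.68 to 7.85. From 140 to 180 kb, coverage was 34.6% to 68.3% and the median fold enrichment was 3.69 to 5.79. The strongest peak, at chr3:61609112-61610768 (1657 bp), had a fold enrichment of 12.1 (8.39 to 16.9) and the largest pileup of all members, 32 fragments (21.9 to 45.2). A peak of 3114 bp at 118.5 kb followed with 10.7 (7.10 to 15.7), and a peak of 488 bp at 63.6 kb in the smaller block had 10.3 (6.77 to 15.2). The widest member of all windows lay in the weaker stretch at chr3:61653831-61659244. It was 5414 bp wide but had a fold enrichment of 3.76 (2.34 to 5.77), from 19 fragments over a background of 4.32 fragments. The first member had a fold enrichment of 5.50 and the last, 1741 bp wide, had 9.51 (6.11 to 14.2). The value of the last member lay above the window median of 5.87. Its interval overlaps that of the median (5.37 to 6.90), so this order was not resolved.

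The HoxB window, which starts at base 84000001 of chromosome 10 and is 280 kb long, had its peaks in several blocks. Its 78 peaks gave 2.79 peaks per 10 kb and covered 72.0 kb (25.7% of the window), with a median width of 617 bp (456 to 768). The median fold enrichment was 5.50 (4.96 to 6.20, range 2.91 to 12.4), and the median pileup was 14 fragments (quartiles 12 and 17.75). A block of 7 peaks at 8.03 to 15.6 kb and a block of 11 peaks at 25.9 to 42.6 kb, 59.1% covered, preceded the longest gap within any window, 56.6 kb. The longest run followed, with 56 peaks from 99.2 to 203.7 kb and 53.0% of its length covered, and then 1 peak of 1758 bp and a sparse group of 3 peaks.

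The longest nearly unbroken stretch of the whole list lay in this HoxB run. After peaks at most 1000 bp apart were merged, 18 peaks joined into an interval of 35.2 kb starting at 107.0 kb, the longest of 12159 merged intervals. It contained the member with the highest fold enrichment of all windows, chr10:84116266-84121659, which was also the widest of its window at 5394 bp. Its fold enrichment was 12.4 (8.44 to 17.6), from 29 fragments (19.4 to 41.6) over a background at the floor. This interval overlaps those of the strongest HoxD and HoxC peaks, so the order of these peaks was not resolved. A peak of 3636 bp at 133.9 kb had a fold enrichment of 11.7 (7.996 to 16.7), and a peak of 2298 bp at 147.8 kb had 9.54 (6.30 to 13.9). The bin from 130 to 140 kb was 87.2% covered, the highest value in any window, and held 2 summits with a median fold enrichment of 10.6. Beside the 56.6 kb gap, the peak before it was 3615 bp wide with a fold enrichment of 7.80 (5.23 to 11.2), and the peak after it was 323 bp wide with 4.03 (2.13 to 7.11). The first member had a fold enrichment of 5.79 and the last had 4.03.

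In the HoxA window, which starts at base 82050001 of chromosome 4 and is 350 kb long, peaks were narrow and thinly spread. Its 79 peaks gave 2.26 peaks per 10 kb but covered 34.5 kb, 9.87% of the window. The median width was 372 bp (312 to 409), the median fold enrichment 4.77 (4.55 to 5.13, range 3.30 to 9.09) and the median pileup 11 fragments (quartiles 9 and 12). The peaks fell into 7 groups separated by gaps over 10 kb, the largest with 32 peaks from 208.0 to 279.5 kb and 20.6% of its length covered. Groups of 20 peaks at 121.4 to 179.2 kb, 14 peaks at 314.2 to 330.9 kb and 10 peaks at 83.1 to 98.0 kb were 16.6%, 31.8% and 23.9% covered, and 3 peaks stood alone.

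The strongest peak of the HoxA window, at chr4:82328685-82329535 (851 bp), had a fold enrichment of 9.09 (5.79 to 13.7) from 21 fragments (13.0 to 32.1). Peaks of 599 bp at 109.4 kb and of 551 bp at 265.6 kb both had a fold enrichment of 7.85 (4.82 to 12.2). The widest peak, 1364 bp at chr4:82198692-82200055, had 5.79 (3.27 to 9.60). All 4 peaks lay over a background at the floor. The first member, 297 bp wide with a fold enrichment of 4.13, stood 45.7 kb before the next member, 312 bp wide with 3.67, and the last had a fold enrichment of 4.55.

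**Figure D1:**
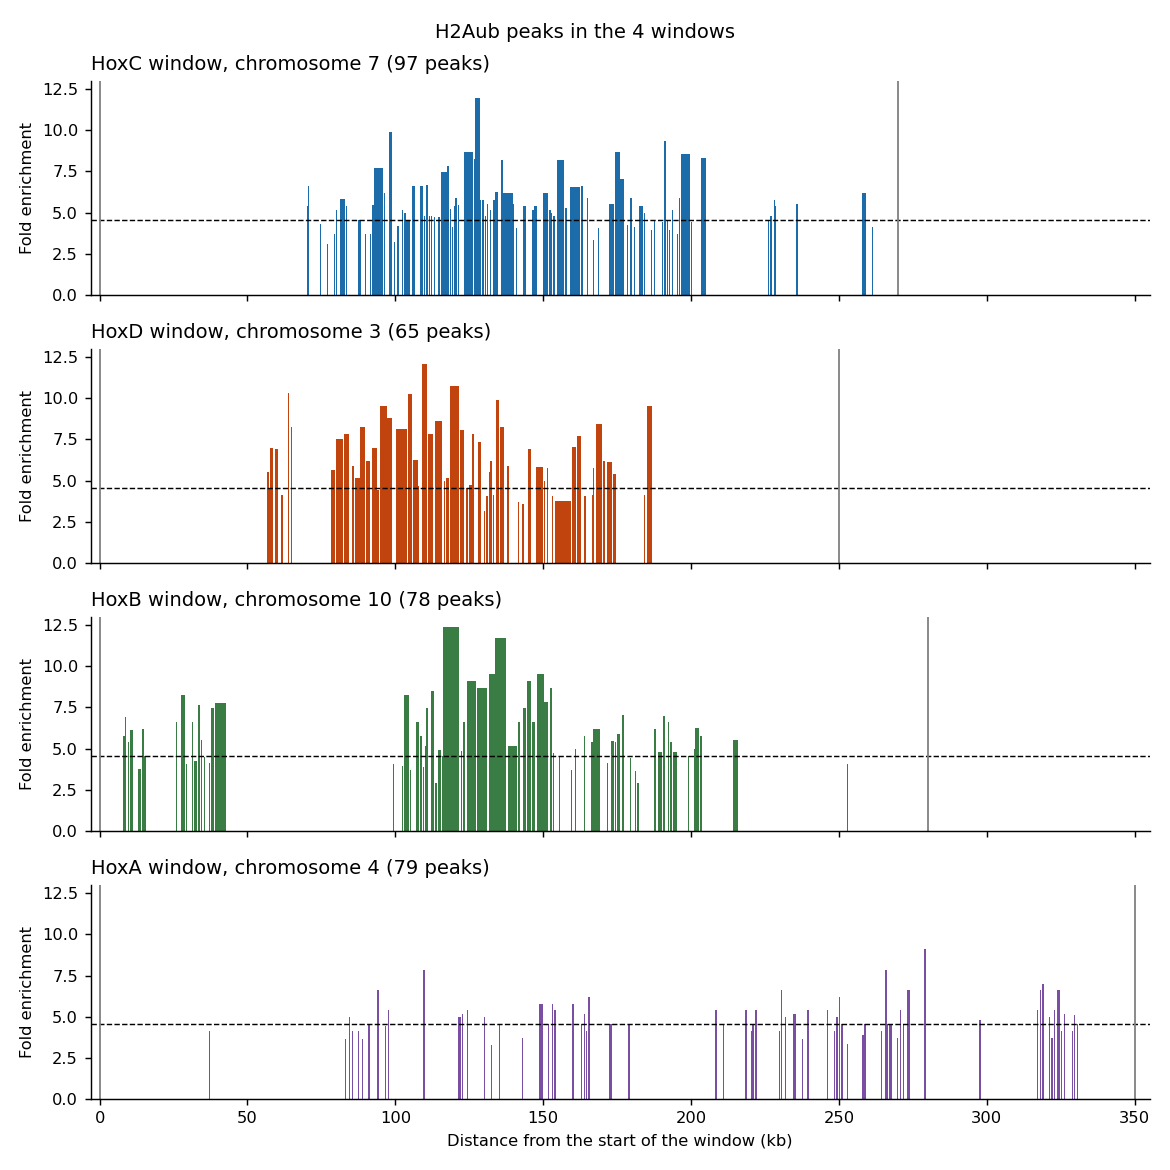
Every H2Aub peak of the 4 windows, drawn to scale as a bar from its start to its end (horizontal axis, kb from the start of the window) with its fold enrichment as height. Grey lines mark the window borders and the dashed line marks 4.55, the median of all 17207 peaks. Bars in the HoxC, HoxD and HoxB windows crowd into a run each and reach 12.0, 12.1 and 12.4, while the HoxA bars are thin, spread over 293.8 kb and reach 9.09.

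The map of peaks shows where each window was filled, and coverage per 10 kb gives the same in numbers. More than 50% was covered in 8 of 27 bins of the HoxC window, 8 of 25 bins of the HoxD window, 5 of 28 bins of the HoxB window and 0 of 35 bins of the HoxA window. The fullest bin was 73.3% covered in HoxC (150 to 160 kb), 82.0% in HoxD (110 to 120 kb), 87.2% in HoxB and 30.5% in HoxA (320 to 330 kb). Empty bins numbered 8, 11, 8 and 13 in the same order. The windows differ in length and reach beyond the peaks, so coverage was also taken between the outermost members of each window: 36.9% of 191.5 kb in HoxC, 55.7% of 130.2 kb in HoxD, 29.4% of 245.1 kb in HoxB and 11.8% of 293.8 kb in HoxA.

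**Figure D2:**
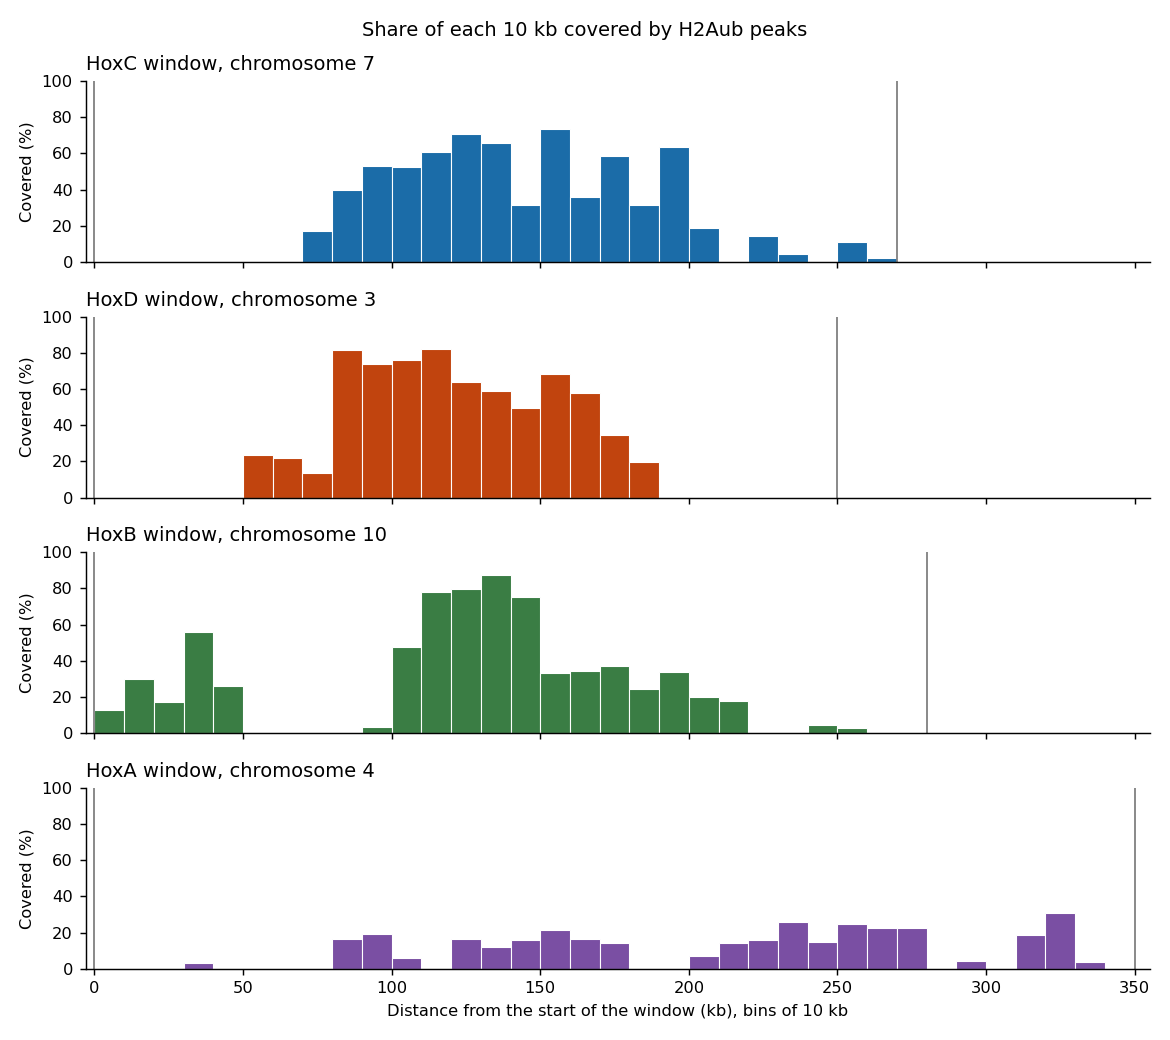
Share of each 10 kb bin covered by H2Aub peaks (vertical axis, percent) along the 4 windows (horizontal axis, kb from the window start, grey lines at the borders). Bars stay over 50% through much of 80 to 170 kb in HoxD and from 110 to 150 kb in HoxB, with a second group of bins at 0 to 50 kb in HoxB, and no HoxA bar exceeds 30.5%.

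Wide peaks carried most of the covered length in the HoxC, HoxD and HoxB windows. A width of at least 1000 bp was reached by 8.66% of all peaks, and by 20 peaks in HoxC (20.6%, 95% Wilson interval 13.8 to 29.7), 31 peaks in HoxD (47.7%, 36.0 to 59.6), 21 peaks in HoxB (26.9%, 18.3 to 37.7) and 2 peaks in HoxA (2.53%, 0.697 to 8.77). These peaks made up 53.3%, 78.8%, 61.2% and 6.85% of the covered length of their windows. They were also the stronger members. The median fold enrichment of wide against narrower peaks was 6.61 against 4.96 in HoxC, 7.70 against 4.83 in HoxD, 7.80 against 5.17 in HoxB and, with 2 wide peaks, 5.37 against 4.55 in HoxA. Over single members, width and fold enrichment had a Spearman rho of 0.650 in HoxC (n = 97), 0.672 in HoxD (n = 65), 0.585 in HoxB (n = 78) and 0.477 in HoxA (n = 79), and of 0.381 over all peaks. The points share the library and its depth, and neighbours share chromatin, so rho is given with no p. Width and summit strength of a peak are read from the same pileup, so a link between them is partly built in. It is not read as a trait of these windows. At least 2000 bp was reached by 2.12% of all peaks, and by 7 peaks in HoxC (7.22%), 8 in HoxD (12.3%), 9 in HoxB (11.5%) and 0 in HoxA. At least 3000 bp was reached by 133 peaks of the list (0.773%), of which 12 were members, 3 in HoxC, 3 in HoxD and 6 in HoxB.

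**Figure D3:**
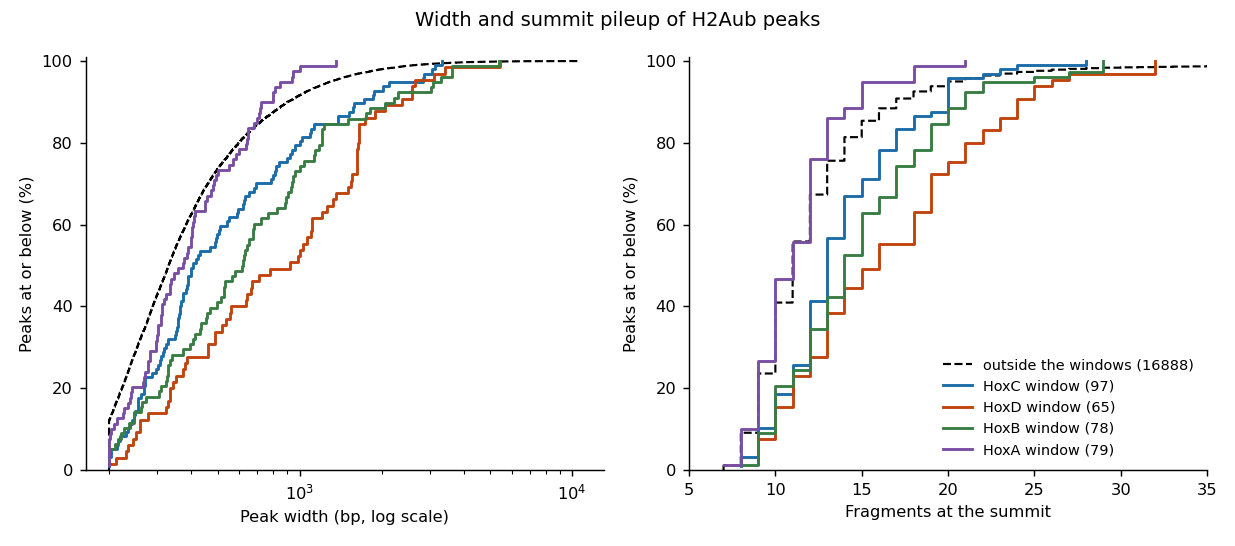
Cumulative share of peaks (vertical axis, percent) by width in bp on a log axis (left) and by fragments at the summit (right), for the 4 windows and for the 16888 peaks outside them (dashed). The HoxD, HoxB and HoxC curves lie to the right of the dashed curve over most of their range, with median pileups of 16, 14 and 13 fragments, and the HoxA curve, with a median of 11 fragments, runs close to it.

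At the summits, HoxA had the lowest of the 4 shares at each limit given here. In the list, 30.5% of peaks had a fold enrichment of 5 or more, as had 44 peaks in HoxD (67.7%, 55.6 to 77.8), 47 in HoxB (60.3%, 49.2 to 70.4), 55 in HoxC (56.7%, 46.8 to 66.1) and 33 in HoxA (41.8%, 31.5 to 52.8). The intervals of HoxD, HoxB and HoxC overlap, so their order was not resolved. That of HoxA overlaps those of HoxB and HoxC and lies below that of HoxD alone. Enrichment of 10-fold or more was found in 0.564% of all peaks and in 4 peaks of HoxD, 2 of HoxB, 1 of HoxC and 0 of HoxA. A q-value of at most 1e-05 was reached by 24.8% of all peaks, and by 40 peaks in HoxD (61.5%, 49.4 to 72.4), 45 in HoxB (57.7%, 46.6 to 68.0), 43 in HoxC (44.3%, 34.8 to 54.2) and 14 in HoxA (17.7%, 10.9 to 27.6). The interval of HoxA lay below those of the other windows at this q limit, and for the share of wide peaks. Listing rests on this same signal, and the windows were proposed with the list known. Nothing is therefore read from the shares of all peaks beside these counts. Neighbouring peaks are not independent, so the intervals are too narrow. An interval that lies below another therefore does not set the windows apart.

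The local background, which the input library sets where it exceeds the genome-wide mean, also varied between the windows. It was at the floor in 66 of 79 HoxA peaks (83.5%, 73.9 to 90.1), 42 of 78 HoxB peaks (53.8%, 42.9 to 64.5), 26 of 65 HoxD peaks (interval 29.0 to 52.1), 35 of 97 HoxC peaks (36.1%, 27.2 to 46.0) and 47.2% of all peaks. The highest background of a member was 5.18 fragments in HoxB, 4.32 in HoxC and in HoxD, and 2.59 in HoxA. A background over 10 times the floor occurred at 0 members. Among peaks at the floor alone, the median fold enrichment was 6.20 in HoxD and in HoxB, 5.37 in HoxC and 4.75 in HoxA, and the median pileup was 14, 14, 12 and 10.5 fragments. HoxA therefore had the lowest median fold enrichment of the 4 windows also among peaks of equal background. Whether the lower background of HoxA peaks plays a part in their number was not tested.

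**Figure D4:**
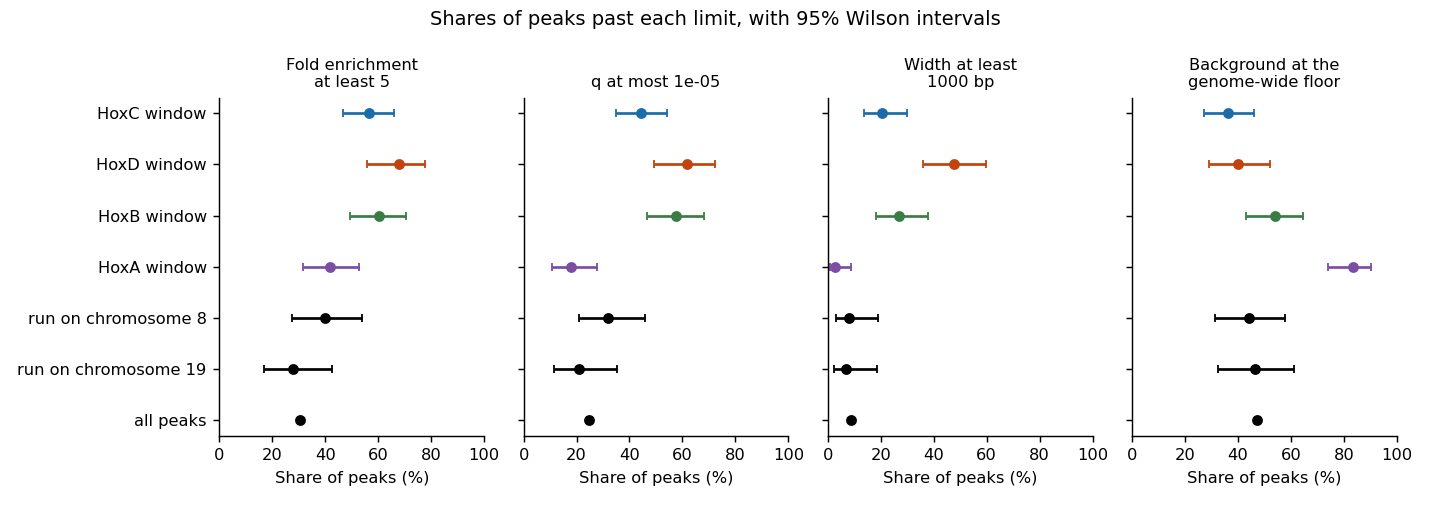
Share of peaks (horizontal axis, percent, with 95% Wilson intervals as bars) that reach a fold enrichment of 5, a q of 1e-05 or a width of 1000 bp, and share whose local background is at the genome-wide floor, for the 4 windows, 2 runs elsewhere and all peaks. HoxA has the lowest of the 4 window shares in the first 3 panels (41.8%, 17.7% and 2.53%) and the highest in the last (83.5%).

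Among the 4 windows, HoxA also had the longest median gap. The median gap between neighbouring peaks was 421.5 bp in HoxD (64 gaps), 484.5 bp in HoxC (96 gaps), 506 bp in HoxB (77 gaps) and 1342.5 bp in HoxA (78 gaps). Gaps of at most 1000 bp made up 84.4%, 71.9%, 68.8% and 44.9% of these. The smallest gap between members was 151 bp and the smallest in the list 150 bp, so intervals nearer than this were not listed apart. Merging peaks across gaps of at most 1000 bp left 11 intervals in HoxD, 28 in HoxC, 25 in HoxB and 44 in HoxA. The longest merged interval was 26.3 kb in HoxD (14 peaks), 18.0 kb in HoxC (15 peaks) and 5.29 kb in HoxA (6 peaks), beside the 35.2 kb of HoxB. The HoxD interval was the 2nd longest of the list, and the longest outside the windows, 22.7 kb, was the 3rd. Gaps over 10 kb numbered 1 in HoxD, 2 in HoxC, 4 in HoxB and 6 in HoxA.

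**Figure D5:**
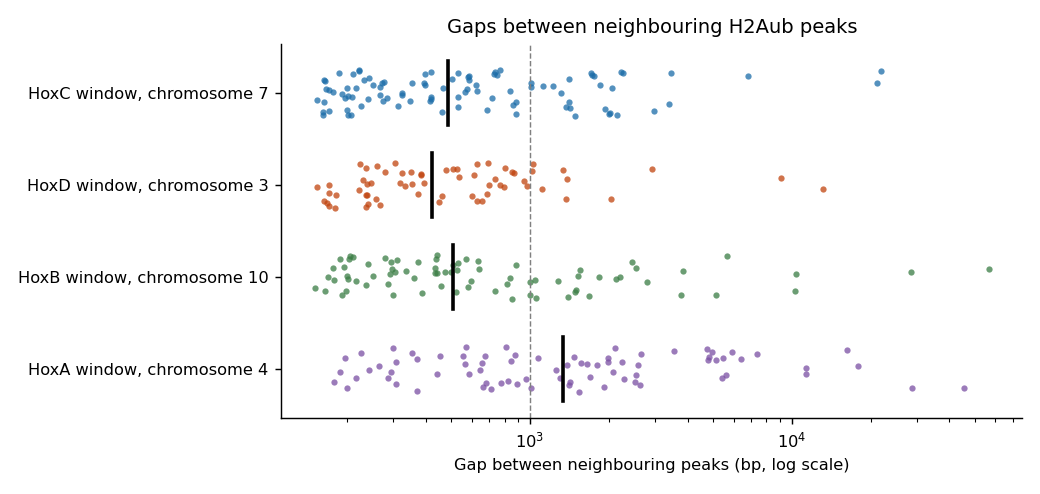
Each point is the gap (horizontal axis, bp, log scale) between neighbouring H2Aub peaks of a window, black bars mark the medians and the dashed line marks 1000 bp. The medians of HoxC, HoxD and HoxB lie between 421.5 and 506 bp, and that of HoxA at 1342.5 bp, with the vertical spread of points within a row carrying no value.

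Outside the windows, H2Aub peaks were sparse on most sides. In flanks as long as the window itself, 0 peaks lay before and 17 peaks (3.05% covered) after HoxC, 0 before and 2 after HoxD (0.873%), 13 before (3.61%) and 3 after HoxB (0.217%), and 1 before (0.106%) and 0 after HoxA. The flanks and the windows were placed on the same list, so this is a description of where the borders fall. Just outside the borders, the nearest peak after HoxC, 236 bp wide with a fold enrichment of 3.45, lay 1.44 kb beyond the border and 9.99 kb from the last member. Before HoxB, a peak of 200 bp with 3.72 lay 0.553 kb outside and 8.58 kb from the first member, so that a run crossed each of these borders. Other neighbours lay farther off: 552.7 kb before the first member of HoxC (5.41), 506.4 kb before (2.92) and 278.4 kb after HoxD (8.80), 60.1 kb after HoxB (4.96), and 124.2 kb before (3.62) and 765.3 kb after HoxA (4.13), with the fold enrichment of each in parentheses. No peak was cut by a border.

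For comparison, the 2 runs with the most peaks elsewhere were taken, 50 peaks at chr8:66232902-66333275 and 43 peaks at chr19:53799246-53906584. Among 675 runs, the longest runs of HoxC, HoxD, HoxB and HoxA ranked 1st, 2nd, 3rd and 6th by number of peaks, and these took the places between. The runs on chromosomes 8 and 19 were 25.9% and 20.7% covered, against 49.97%, 62.7%, 53.0% and 20.6% of the HoxC, HoxD, HoxB and HoxA runs. Their peaks had a median width of 427 and 375 bp, a median fold enrichment of 4.73 and 4.74 and a median pileup of 12 and 11 fragments, values near those of HoxA (372 bp, 4.77 and 11 fragments). Widths of at least 1000 bp occurred in 4 and 3 of their peaks. Their median gaps, where none over 10 kb can occur, were 1005 and 1121 bp, beside 1342.5 bp in the whole HoxA window. Their backgrounds were at the floor in 22 of 50 and 20 of 43 peaks, beside 47.2% of the list. The whole list had a median width of 332 bp, a median fold enrichment of 4.55 and a median pileup of 11 fragments. All of these runs were picked by their number of peaks, and no test was made between them.

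Members, 1.85% of the list, were also counted among its strongest and widest peaks. Of the 20 peaks with the highest fold enrichment 1 was a member, the widest HoxB peak, and of the highest 50 peaks 4 were members. Ranks up to 100 held 111 peaks with ties, of which 5 were in HoxD, 2 in HoxC, 2 in HoxB and 0 in HoxA. Among the 29 peaks of at least 5000 bp (0.169% of the list), 2 were members. If every summit had held 3 fragments fewer over the same background, 16 HoxC peaks (16.5%), 10 HoxD peaks (15.4%), 14 HoxB peaks (17.9%), 21 HoxA peaks (26.6%) and 35.6% of all peaks would have fallen below the smallest −log10 p of the list, 3.698. With 1 library pair there is no replicate spread behind any of these values, and whether H2Aub over these windows differs from that of non-ischemic myocardium was not tested.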

How the data were processed

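H2Aub ChIP-seq of rat myocardium was analysed from 1 peak list (1 ChIP and 1 input library). The submitters' processing notes name bcl2fastq 2.17, Trimmomatic 0.33, Bowtie 1.1.2, MACS2 2.1.0 and the build hg38, with no role or order given. The list follows rat chromosomes, so the build is not settled. Per peak, the authors deposited a score, the fold enrichment as a linear ratio, and the −log10 of a p-value and of a q-value. The score restates the −log10 q (10 times its value, cut to a whole number) in 17207 of 17207 peaks. The smallest −log10 q was 1.30. Read counts and depth per library are not given in the list. Pileup and background were solved from the deposited fold enrichment, (pileup + 1) / (background + 1), and the Poisson probability of exceeding the pileup. All 17207 peaks were solved within 0.002 of the −log10 p, and the solver was tested on simulated data. Python 3.11.15 with NumPy 2.4.6, SciPy 1.17.1, pandas 2.3.3 and Matplotlib 3.10.9 was used. Coordinates are those of the list, counted from 1. Shares have Wilson, pileups exact Poisson and medians order-statistic intervals, all at 95%. Single fold enrichments have the pileup interval over a fixed background. Peaks described singly were, per window, the first, last, widest and 3 strongest by fold enrichment, the highest −log10 p, those beside the longest gap, any with a background over 10 times the floor, and the nearest outside. The windows, members and lists were chosen with earlier results of these data known. Other thresholds, merging and denominators were tried as alternatives. No gene was assigned to a peak.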

Additional observations from a re-analysis of the deposited data

How the results depend on the processing

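Each value per window was recomputed under other thresholds, merging and denominators. Of 96 alternatives, 61 stayed within a factor of 1.5 (counts, coverage, gaps) or within the 95% interval (medians). The other 35 moved, each because the alternative keeps fewer peaks, joins peaks or divides by a shorter length. Some of those that stayed could not move. No peak was cut by a border, so counting peaks with at least 1 base inside a window changed no count. Merging at 1000 bp could not alter the longest gaps, which are all longer than that. At a q of at most 1e-05 the windows HoxC, HoxD, HoxB and HoxA kept 43, 40, 45 and 14 peaks, with median fold enrichments of 6.21, 7.43, 6.61 and 6.61 and median pileups of 16, 19, 16 and 15 fragments. At a fold enrichment of at least 5, 55 HoxC, 47 HoxB and 33 HoxA peaks were left, the median fold enrichments became 5.86, 6.998, 6.61 and 5.37, and the median pileups of HoxD, HoxB and HoxA became 19, 16 and 13 fragments. Merging at 1000 bp left 28, 11, 25 and 44 intervals. Over the longest run, coverage was 49.97%, 62.7%, 53.0% and 20.6%, and over the span of its peaks HoxD was 55.7% covered. HoxA coverage was 2.53% at a q of at most 1e-05, 4.92% at a fold enrichment of at least 5 and 14.9% after merging, and its longest gap was 28.9 kb at a q of at most 0.001. HoxA had the lowest median fold enrichment of the 4 windows among all peaks, and again once peaks under 5-fold were dropped, whereas at a q of at most 1e-05 HoxC was lowest and HoxA equalled HoxB. The restriction to peaks at the background floor was chosen after seeing the data and moved no median beyond its interval.

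The solver run without its added count of 1 gave no value, with 0 members solved. No paired analysis was possible because the data hold 1 ChIP and 1 input library, so no replicate was left out either. Depth limits the order of single summits: at 7 to 32 fragments, those of like pileup have overlapping intervals.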
